A study of Mus musculus with 3 samples.

Results

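Klf2, Klf4, Nos3, Thbd and Piezo1, endothelial genes that respond to or sense the shear stress of flowing blood, were followed across the cells of the mouse retina at 3 ages. The 5 genes were taken by symbol from the 32285 genes of the count matrices, with no threshold on a measured value, and each had a row of its own. Retinas of C57BL/6JRj mice, which were 3 months old in the young group, 12 months in the adult group and 23 months in the old group, were digested enzymatically in 2 rounds, in the first of which neurons were removed. CD31+ cells were then enriched magnetically and sequenced as single cells with droplet chemistry that tags RNA molecules with unique molecular identifiers (UMIs). None of the groups carried a transgene or received a treatment, and the sources used here do not give the sex of the mice. Each library pooled 4 retinas of 2 mice and each age had 1 library, so cells were not replicates, age could not be told apart from library, and no test between ages was possible. Levels are therefore UMIs of a gene per 1000000 UMIs of a cell class (CPM) with exact 95% Poisson intervals, and ratios carry exact 95% intervals, all of which cover counting error and none of the variation between mice. A ratio beyond 1.5-fold in either direction was used as a mark of size, with the share of all measured genes beyond it given as the background.

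Endothelial cells sense the drag of the blood stream at their surface. Piezo1 is a cation channel that opens when the membrane is stretched or sheared. Steady laminar flow acts through a kinase cascade that ends in ERK5 (encoded by Mapk7) and MEF2 factors to raise KLF2 and KLF4, zinc finger transcription factors that keep the vessel wall anti-inflammatory and anti-thrombotic. Among the genes that both factors raise are Nos3, the endothelial nitric oxide synthase whose product relaxes the smooth muscle around arterioles, and Thbd, thrombomodulin, the surface receptor that turns thrombin towards activation of the anticoagulant protein C. Klf2 and Klf4 are also known as genes that respond within minutes to stress, tissue digestion included. Retinal arteries are wrapped by smooth muscle and capillaries by pericytes, which together are the mural cells, and neither faces the blood.

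In the mm10 (GRCm38) assembly with GENCODE vM21 annotation, Klf2 (ENSMUSG00000055148) lies at chr8:72319033-72321656 on the plus strand with 3 exons in its longest transcript, and Klf4 (ENSMUSG00000003032) at chr4:55527143-55532466 on the minus strand with 5. Nos3 (ENSMUSG00000028978) lies at chr5:24364810-24384474 on the plus strand with 26 exons and overlaps Gm15587 and Atg9b on the opposite strand. Thbd (ENSMUSG00000074743) is a gene of 1 exon at chr2:148404466-148408188 on the minus strand. Piezo1 (ENSMUSG00000014444) spans chr8:122481698-122551329 on the minus strand with 51 exons, and overlaps Ctu2 and Gm20388 on the opposite strand and the small nuclear RNA Gm26497 on its own.

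The promoters are shown because the flow cascade ends in MEF2 and KLF factors, whose motifs were searched there, and those of 3 of the 5 genes were in the RefSeq table of GRCm38.p6. The 250 bases before the RefSeq start are printed 5′ to 3′ with motif matches in capitals.
Klf2, chr8:72318812-72319061, plus strand: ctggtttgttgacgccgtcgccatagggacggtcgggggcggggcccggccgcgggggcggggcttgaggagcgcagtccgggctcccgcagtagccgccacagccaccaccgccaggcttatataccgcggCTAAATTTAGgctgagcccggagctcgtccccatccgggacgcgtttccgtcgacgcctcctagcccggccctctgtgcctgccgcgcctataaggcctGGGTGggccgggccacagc
Klf4, chr4:55532476-55532725, minus strand: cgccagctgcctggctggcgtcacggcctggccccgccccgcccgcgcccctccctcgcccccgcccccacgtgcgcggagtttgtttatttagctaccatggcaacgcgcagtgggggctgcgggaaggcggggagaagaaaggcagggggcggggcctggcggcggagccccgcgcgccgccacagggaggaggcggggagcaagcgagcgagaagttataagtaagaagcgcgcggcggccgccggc
Piezo1, chr8:122551330-122551579, minus strand: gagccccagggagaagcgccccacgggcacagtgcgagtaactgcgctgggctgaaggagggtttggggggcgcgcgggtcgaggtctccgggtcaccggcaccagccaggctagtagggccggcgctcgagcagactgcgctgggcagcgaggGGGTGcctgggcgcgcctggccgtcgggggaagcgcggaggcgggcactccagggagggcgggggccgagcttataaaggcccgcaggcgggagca
The search covered both strands of these bases and the 50 that follow the start, for the KLF box CACCC (which reads GGGTG on the other strand), the MEF2 motif, the AP-1 motif TGANTCA and the CArG box bound by serum response factor. Klf2 held a MEF2 match, CTAAATTTAG, with its first base 118 bases before the start (position -118), and a KLF box as GGGTG at -19. Of all 32851 promoter windows, 3.19% held a MEF2 match and 57.5% held a KLF box. Piezo1 held a KLF box as GGGTG at -96 and no match to the other motifs. Klf4 held none of the 4 motifs in this window. The AP-1 motif stood in 7.81% of all windows and the CArG box in 1.63%, and in none of the 3 shown. The 3 promoters were rich in G and C, at 71.2% for Klf2 and 74.0% for both Klf4 and Piezo1 against a median of 52.4%. Nos3 and Thbd had no entry in the table.

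After the filters on genes and mitochondrial UMIs and removal of called doublets, 1705 young, 1957 adult and 1701 old cells were kept, and 2 barcodes were shared, both between the adult and the old library. Clusters were named from marker genes, so that "endothelial", "pericyte" and the other class names stand for endothelial-like and pericyte-like clusters, and the 5 genes and the stress genes were kept out of the clustering. Endothelial cells (445 young, 434 adult, 407 old) carried 8 of 8 endothelial markers, with median depths of 5640, 5993 and 7496 UMIs. The arterial cluster (48, 61 and 80 cells) was led by Gkn3, Tmem100, Vegfc and Sema3g, and held 10 of 12 arterial markers. Pericytes (172, 129 and 102 cells) carried 10 of 10 markers, and smooth muscle cells (38, 38 and 37 cells), led by Tagln, Acta2, Pln and Myh11, carried 7 of 9. Droplets with markers of both endothelial and mural cells (310, 249 and 225) were kept apart as a mixed class and entered neither.

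Among vascular and neural cells, Klf2 was chiefly a transcript of the endothelium at every age. The endothelial level was 2348 CPM (2296 to 2402) for young mice, 2461 CPM (2408 to 2514) for adult mice and 2606 CPM (2554 to 2659) for old mice. At 2000 UMIs per cell a Klf2 UMI was found in 95.6% of young, 95.8% of adult and 95.3% of old endothelial cells, against 4.76%, 1.39% and 3.52% of rods, photoreceptors that should lack the gene (median depths of 2287, 2423 and 2161 UMIs). Klf2 was in this way a near-universal transcript of the endothelial cluster and rare in rods. An amacrine cluster of 18, 17 and 16 cells held 0, 1 and 19 Klf2 UMIs, the last equal to 130 CPM. Outside the endothelium and leaving aside the few immune cells, the order in each library ran from smooth muscle (280, 535 and 691 CPM) over pericytes (154, 135 and 229 CPM) to neurons and Müller glia. In the latter classes the levels were 33.0, 25.4 and 22.7 CPM in bipolar cells, 18.8, 7.05 and 19.8 CPM in rods and 14.4, 12.3 and 12.1 CPM in Müller glia, and neighbours in this group had overlapping intervals in most libraries.

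Klf4, the close relative of Klf2, followed the same broad order. Its endothelial level was 987 CPM in the young, 1116 CPM in the adult and 984 CPM in the old library. Smooth muscle held 169, 289 and 237 CPM and pericytes 98.7, 114 and 146 CPM. Both mural levels were below the endothelial level in each library, and both stood above rods, at 2.08, 1.01 and 4.94 CPM. At 2000 UMIs per cell, 75.9%, 75.1% and 74.1% of young, adult and old endothelial cells held a Klf4 UMI, compared with 0%, 0% and 0.704% of rods.

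Nos3 was detected at 183 CPM in young, 174 CPM in adult and 187 CPM in old endothelial cells. In smooth muscle it was at or near the limit of detection, with 1 UMI in each library. Pericytes held 5, 5 and 6 Nos3 UMIs, equal to 7.05, 9.22 and 12.1 CPM. Bipolar cells held 18.4, 28.2 and 27.3 CPM, above Müller glia, rods and cones.

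Thbd stood at 215 CPM in the young, 222 CPM in the adult and 201 CPM in the old endothelium. Among the 5 genes it was, with Klf2 and Klf4, one that mural cells also held, at 46.5, 49.8 and 64.8 CPM in pericytes and 39.0, 39.5 and 22.3 CPM in smooth muscle. Mural intervals overlapped each other in the young and adult libraries and lay below the endothelial interval in all 3. Müller glia were close to 0, with 3, 1 and 1 UMIs.

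Piezo1 was measured at 70.2 CPM in young, 63.5 CPM in adult and 65.0 CPM in old endothelial cells. In pericytes there were 1, 3 and 3 UMIs of this channel, and in smooth muscle 0, 0 and 3. No Piezo1 UMI was found in bipolar cells, which allows a level of up to 2.30, 2.12 and 2.73 CPM (3 counts). Müller glia, the radial support cells of the retina, held 13.2, 7.70 and 3.18 CPM.

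**Figure D1:**
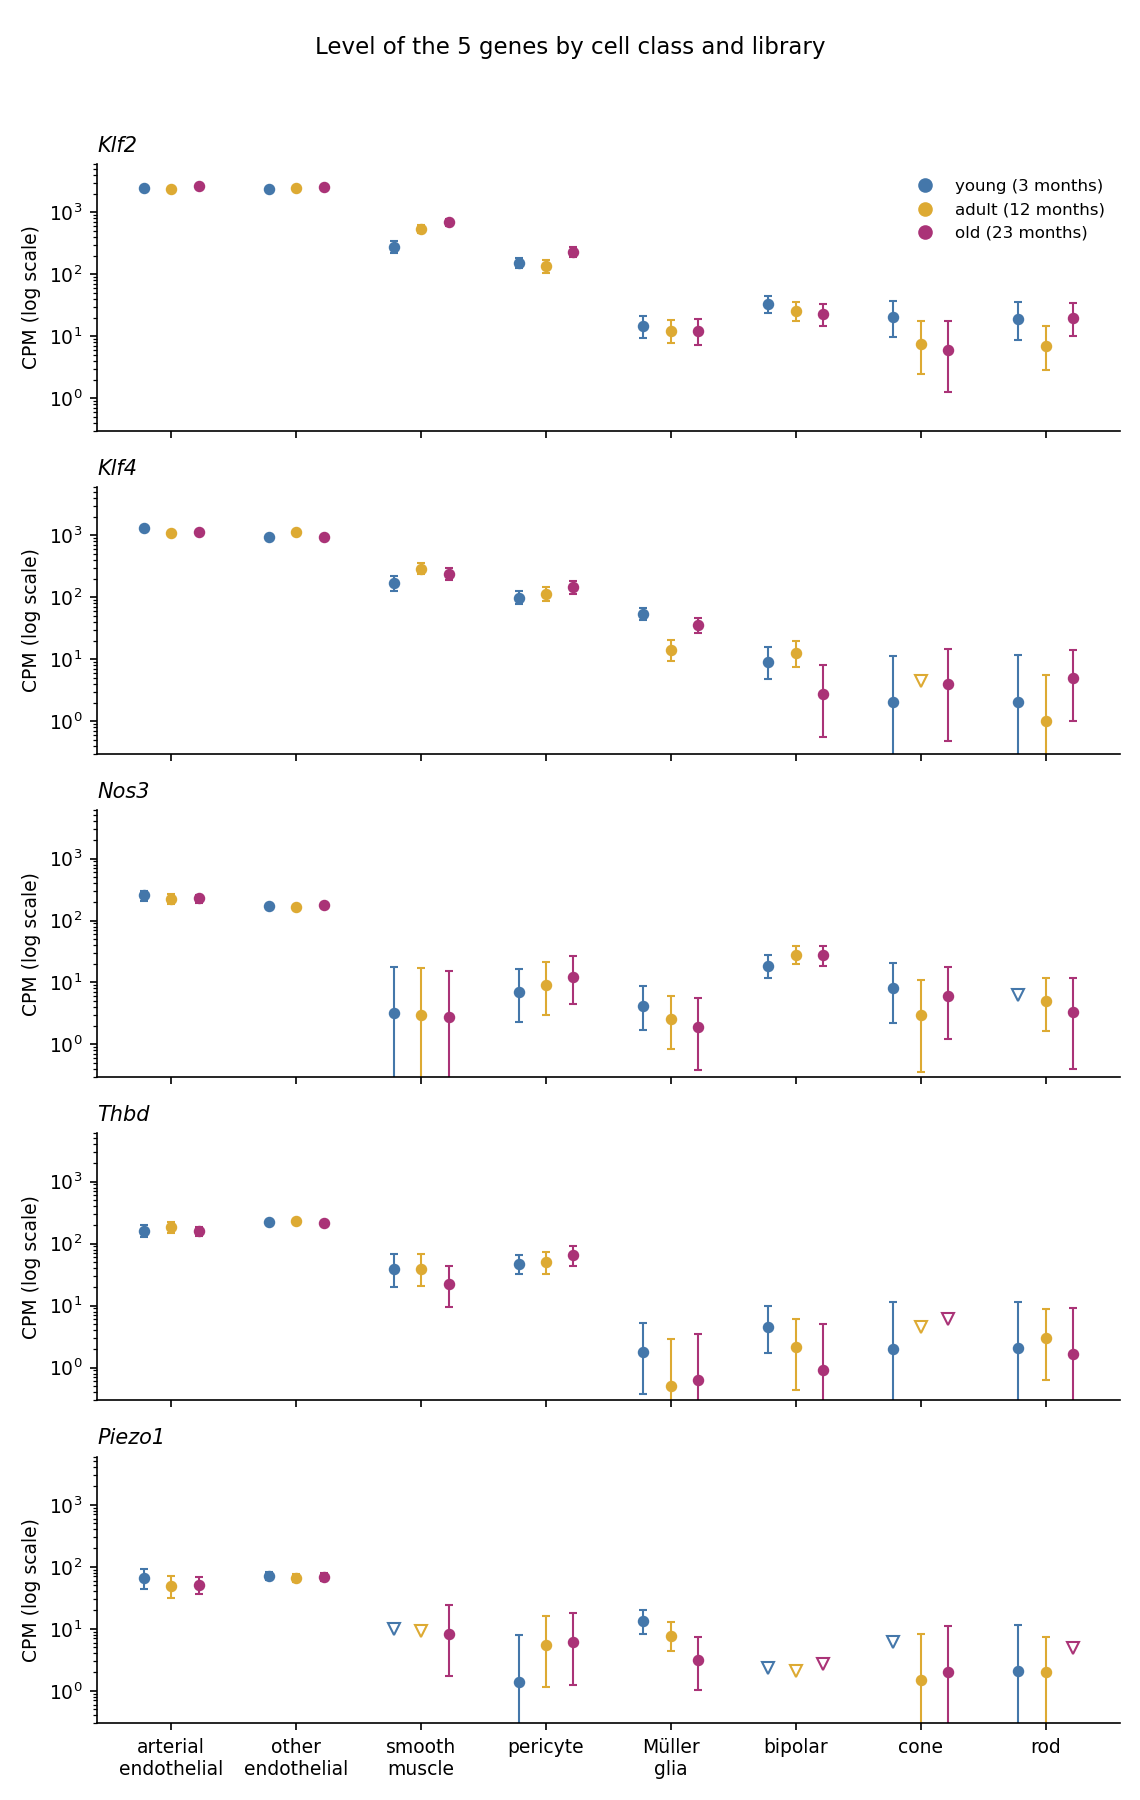
Level of each of the 5 genes (CPM, log axis) in 8 cell classes of the young, adult and old library, with bars for exact 95% Poisson intervals (cut at the lower end of the axis) and open triangles, drawn at the level of 3 counts, where no UMI was found. All 5 genes were highest in the 2 endothelial classes, Klf2 and Klf4 followed in smooth muscle and pericytes, and Nos3 reached 28.2 CPM in bipolar cells.

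Within the endothelium, arterial cells were set against all other endothelial cells, and none of the 5 genes was beyond 1.5-fold in all 3 libraries in either direction (background 3.94% of genes higher and 2.78% lower in arterial cells). Klf2 was level between them, at 2437, 2411 and 2671 CPM in arterial and 2334, 2470 and 2588 CPM in other endothelial cells, for ratios of 1.04, 0.976 and 1.03. Klf4 was 1.41-fold higher in arterial cells of the young library and 1.21-fold higher in the old, but 0.976-fold in the adult. Its arterial levels were 1315 CPM (1212 to 1424), 1093 CPM (1006 to 1185) and 1142 CPM (1069 to 1219).

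Nos3 was the one member whose arterial level was higher beyond counting error in all 3 libraries. It stood at 254, 224 and 227 CPM in arterial and 171, 164 and 176 CPM in other endothelial cells. The arterial to other ratio was 1.48 (1.20 to 1.82) for young, 1.36 (1.10 to 1.67) for adult and 1.29 (1.08 to 1.53) for old mice. When endothelial cells holding 3 or more marker genes of another class were left out, the ratio of the old library turned to 0.832, on 81 arterial cells in all. In a finer clustering that put 397 cells in place of 189 into the arterial class, the young ratio was 1.13 (0.953 to 1.34), within counting error of 1. Thbd had the opposite tendency, at 162, 186 and 159 CPM in arterial and 223, 228 and 213 CPM in other endothelial cells. The interval of its ratio stayed below 1 in the young (0.725, 0.562 to 0.924) and old library (0.744, 0.609 to 0.902) and reached 1.01 in the adult (0.816). The ratio of the young library was 1.21 in the finer clustering. Piezo1 was counted at 30, 26 and 40 UMIs in arterial cells, too few to separate 65.6, 48.9 and 50.4 CPM there from 70.9, 66.3 and 69.0 CPM in the other endothelial cells, and the interval of each ratio included 1.

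The arterial cluster was kept as it was. A second clustering, of the other endothelial cells alone, gave a venous cluster, a cluster called capillary whose leading genes included a capillary marker, and 3 more that were called by a leading gene (Slc26a10, Ifit3 and Kcnj8). The latter 3 also held 8 of 8 capillary markers, which summed to 6518 to 7806 CPM in them and to 7019, 6347 and 6052 CPM in the capillary cluster, so that the capillary cluster was one of several with a capillary profile. The Kcnj8-led cluster was in addition led by the mural genes Abcc9, Pdgfrb, Vtn and Des and had the highest summed pericyte markers of the 6 clusters. Venous cells, at 34, 28 and 40 cells the smallest of them, were above capillary cells for most members. Their median depths were 11428, 11979.5 and 13097.5 UMIs, against 4276, 3731 and 4958.5 UMIs in capillary cells, and the part of depth in these ratios was not tested. The venous to capillary ratio of Nos3 was 1.67, 1.43 and 1.57 in the young, adult and old library, with venous levels of 252, 196 and 224 CPM. For Thbd it was 1.56, 1.43 and 1.29, with venous levels of 275, 226 and 255 CPM. For Klf4 it was 1.53, 1.31 and 1.19. No member was beyond 1.5-fold in all 3 libraries, where 4.27% of genes were higher in venous cells and 1.60% lower. The venous excess of Klf2 was 1.26-fold in the young library, 1.10-fold in the adult and 0.983-fold in the old, where the capillary level, 2153 CPM in the young and 2481 CPM in the adult library, was 2854 CPM. Piezo1 stood at 114 CPM in young venous cells against 57.5 CPM in young capillary cells (ratio 1.99, 1.26 to 3.17), and the adult and old ratios were 0.997 and 1.12.

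Arterial and venous cells, at the inlet and the outlet of the network, differed little in the factors. The arterial to venous ratio of Klf2 was 0.895, 0.883 and 0.952, and that of Klf4 was 1.17, 0.985 and 1.17. Nos3 was level, at 1.01, 1.14 and 1.01, whereas Thbd was lower in arterial cells at 0.589, 0.824 and 0.622. Against capillary cells, arterial Nos3 was 1.69, 1.63 and 1.59-fold and arterial Klf4 1.78, 1.29 and 1.40-fold. The level of Nos3 was thus higher in the arterial and venous clusters than in the capillary cluster in each of the 3 libraries. In the Slc26a10-led cluster, which also held the capillary markers, Nos3 was at 149, 185 and 182 CPM, and its adult interval overlapped those of the arterial and venous clusters.

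**Figure D2:**
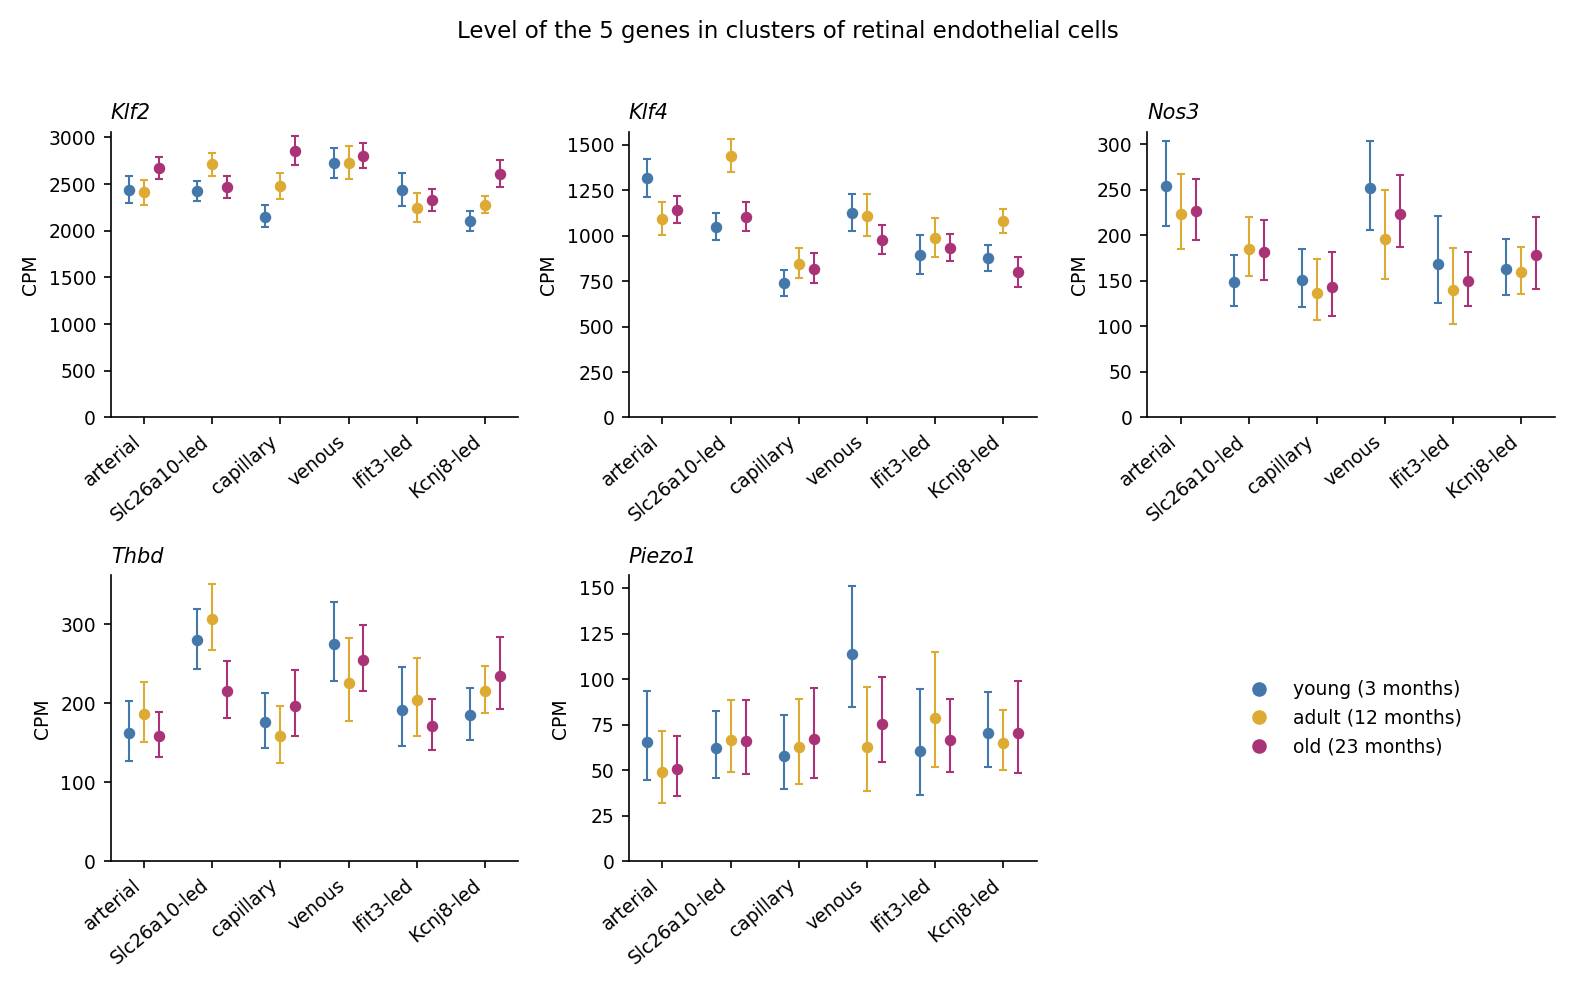
Level of each gene (CPM, linear axis) in 6 endothelial clusters of the young, adult and old library, with exact 95% Poisson intervals as bars. Nos3 stood highest in the arterial and venous clusters (196 to 254 CPM), and capillary Klf2 ran from 2153 CPM in the young to 2854 CPM in the old library.

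With age, no member was beyond 1.5-fold between the old and the young endothelium, where 7.93% of 8981 measured genes were, nor between the adult and the young, where 4.40% were. The same held in arterial cells, where 11.3% and 9.90% of genes were beyond it for the old and the adult library, and in other endothelial cells, where 7.41% and 4.45% were. The old to young ratio of Klf2 was 1.11 (1.08 to 1.14) and that of Klf4 was 0.997 (0.950 to 1.05). Nos3 had a ratio of 1.02 (0.916 to 1.14), Thbd of 0.939 (0.845 to 1.04) and Piezo1 of 0.925 (0.768 to 1.11). The channel, the factors and their targets were each close to level across the 3 ages in the endothelium as a whole.

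The small Klf2 difference was carried unevenly by the endothelial clusters. In capillary cells the old to young ratio of Klf2 was 1.33 (1.23 to 1.43), in the Kcnj8-led cluster 1.24 (1.15 to 1.34), from 2105 CPM over 2281 CPM to 2609 CPM, and in arterial cells 1.10 (1.02 to 1.18). The arterial ratio turned to 0.878 (0.778 to 0.991) when endothelial cells holding 3 or more marker genes of another class were left out. Venous Klf2 was level at 2722, 2731 and 2805 CPM, and the Ifit3-led cluster ran from 2436 CPM in the young over 2245 CPM to 2325 CPM in the old library. In the Slc26a10-led cluster Klf2 was at 2423, 2711 and 2464 CPM (old to young 1.02, 0.951 to 1.09). The summed pericyte markers were lower in the old than in the young library in all 3 clusters with a higher Klf2, at 1767, 1814 and 1150 CPM in capillary, 1361, 1002 and 453 CPM in arterial and 3690, 3299 and 2827 CPM in Kcnj8-led cells. They were also lower in the old Ifit3-led (2070 and 1618 CPM) and Slc26a10-led cluster (1747 and 1242 CPM), where Klf2 was not higher beyond counting error. In old venous cells they were higher (977 and 1260 CPM). The summed immediate early genes, described with the dissociation response, were higher in the old library in the 3 clusters with a higher Klf2. They stood at 11922 and 12985 CPM in young and old capillary, 11810 and 12907 CPM in arterial and 11082 and 11940 CPM in Kcnj8-led cells. They were lower in old venous (12462 and 11768 CPM) and Slc26a10-led cells (14619 and 12574 CPM), where Klf2 was level between old and young. In the old Ifit3-led cluster they were higher (11618 and 12435 CPM), and Klf2 was not. The summed heat shock genes of the same list were lower in the old library in every cluster but the arterial (2203 and 2266 CPM). They stood at 3146 and 2940 CPM in young and old capillary and 3268 and 2502 CPM in Kcnj8-led cells. The part of any of these sets of genes in the Klf2 ratios was not tested.

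Klf4 had age ratios on opposite sides of 1 in arterial and other endothelial cells, both beyond counting error for the adult library. In arterial cells its adult to young ratio was 0.831 (0.740 to 0.933), whereas in the other endothelial cells it was 1.20 (1.14 to 1.26), from 934 CPM in the young to 1120 CPM in the adult library. The old library stood at 941 CPM there, for an old to young ratio of 1.01, against 0.869 (0.783 to 0.965) in arterial cells. The adult level was highest in the Slc26a10-led cluster, at 1049, 1438 and 1104 CPM. In the finer clustering the arterial adult to young ratio was 1.05, so that its direction rested on which cells were called arterial.

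Among the targets, age ratios were within counting error of 1 in arterial cells, at 0.893 (0.703 to 1.14) for Nos3 and 0.980 (0.730 to 1.32) for Thbd between old and young. Thbd was lower in the old Slc26a10-led cluster than in the young, at 280, 307 and 216 CPM (0.773, 0.621 to 0.959). Venous Piezo1 stood at 114 CPM in the young, 62.5 CPM in the adult and 75.3 CPM in the old library, for an adult to young ratio of 0.547 (0.312 to 0.929).

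**Figure D3:**
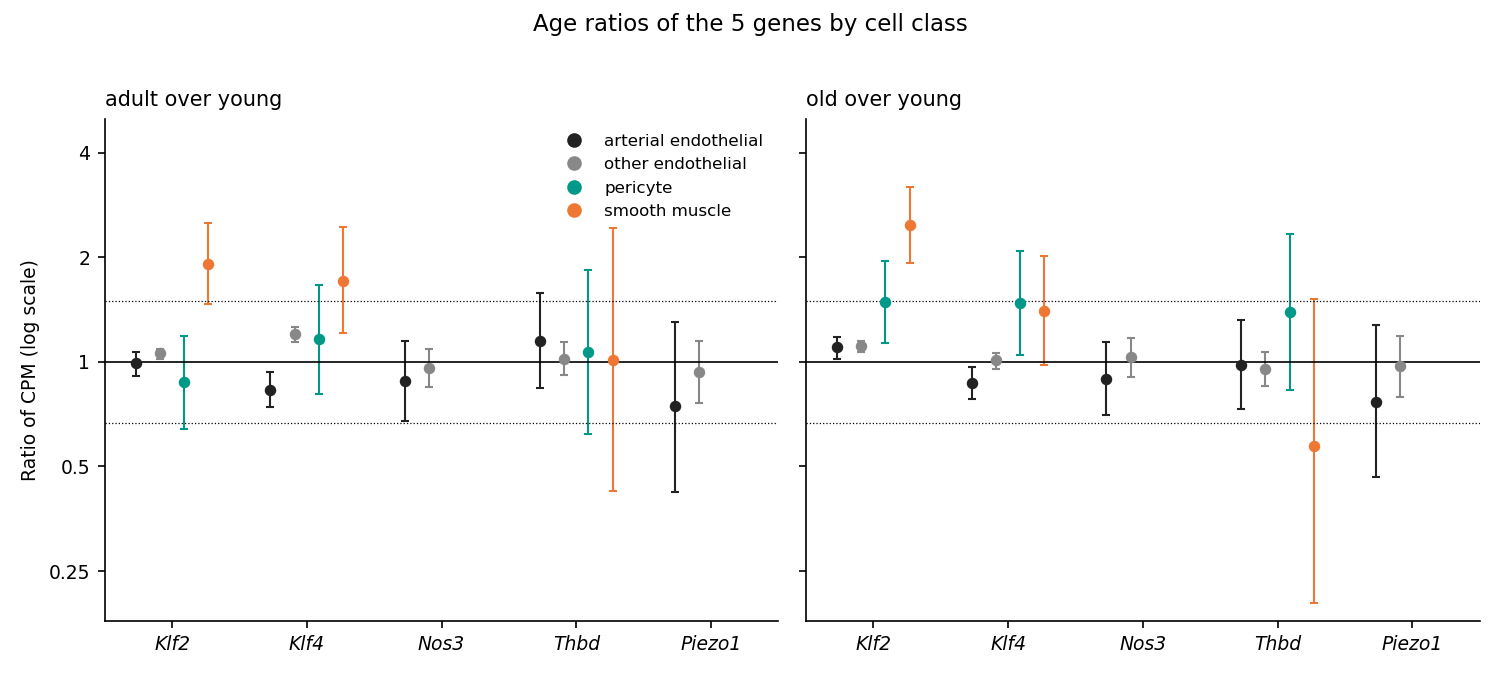
Adult to young and old to young ratio of each gene (log axis, dotted lines at 1.5-fold) in arterial endothelial, other endothelial, pericyte and smooth muscle cells, with exact 95% intervals as bars and ratios resting on under 20 UMIs not drawn. Endothelial ratios stayed within 1.5-fold for all 5 genes, and Klf2 in smooth muscle stood at 1.91 and 2.47.

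The other genes of the flow pathway gave a setting for these values. Of 56 listed genes (sensors, the ERK5 cascade, factors and targets), 45 had at least 50 UMIs in the old and young endothelium together, of which 2 were higher beyond 1.5-fold in the old library and 0 lower (background 4.90% higher and 3.03% lower). The median log2 ratio of the list was -0.06, beside 0.02 over all measured genes. The higher genes were Vcam1, a leukocyte adhesion molecule that KLF2 is known to restrain, at 71.1, 130 and 188 CPM (2.64, 2.27 to 3.08), and Trpv4, a mechanosensitive calcium channel, at 12.9, 12.9 and 22.7 CPM (1.76, 1.20 to 2.61).

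Edn1, the vasoconstrictor endothelin, was 1.36-fold (1.27 to 1.46), from 400 CPM in the young over 515 CPM to 545 CPM in the old library, and Procr, the receptor for the protein C that thrombomodulin activates, had a ratio of 1.34 (0.935 to 1.92). At the other end stood Mapk7, which encodes ERK5 (0.673, 0.408 to 1.10), the subunits of the nitric oxide receptor Gucy1b1 (0.684, 0.469 to 0.992) and Gucy1a1 (0.723, 0.414 to 1.25), and Tfpi, an inhibitor of coagulation (0.715, 0.472 to 1.08). These lower genes were sparse, at 7.13 to 21.2 CPM, and most of their intervals included 1. Pericytes held far more of Gucy1b1 (837, 778 and 848 CPM), Gucy1a1 (514, 583 and 472 CPM) and Tfpi (144, 140 and 121 CPM), and the 10 pericyte markers summed to 2043, 2071 and 1334 CPM in the endothelial class. The part of pericyte RNA in the lower values of these 3 genes was not tested. Between adult and young, 1 of 46 measured list genes was higher beyond 1.5-fold and 2 were lower (background 2.94% and 1.46%).

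In the KLF family, 11 of 13 genes were measured between the old and young endothelium and none was beyond 1.5-fold, with a median log2 ratio of -0.10. Klf6 was at 1.11 (1.02 to 1.21) and Klf16 at 1.34 (0.870 to 2.07). Klf12 had the lowest ratio at 0.696 (0.567 to 0.853), followed by Klf13 at 0.724 (0.655 to 0.799), Klf11 at 0.841 and Klf10 at 0.849. Relatives of Klf2 and Klf4 therefore stood on both sides of 1. In arterial cells, 4 of 10 measured family members were lower beyond 1.5-fold in the old library and 0 higher (background 4.99% lower and 6.31% higher), namely Klf10, Klf11, Klf12 and Klf13. Klf13 stood there at 302, 295 and 194 CPM, and Klf2, with the ratio of 1.10 that turned under the alternative given with it, was the single measured member above 1.

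Mural cells were set against the endothelium next. All 5 genes were beyond 1.5-fold lower in pericytes in each library, a mark that 16.1% of genes met, and Klf2, Nos3 and Piezo1 were at or below 10% of the endothelial level in all 3, as were 2.95% of genes. Pericyte Klf2 came to 0.0654, 0.0547 and 0.0878 of the endothelial level. To gauge RNA carried over from endothelial cells, the 8 endothelial markers were summed in each class. They reached 698, 751 and 838 CPM in pericytes against 13365, 13501 and 13111 CPM in the endothelium, and a gene carried over at the same rate would give 123, 137 and 167 CPM of Klf2. The measured Klf2 was 154 CPM (126 to 185) for young, 135 CPM (106 to 169) for adult and 229 CPM (188 to 275) for old mice, so that its interval lay above the expected level in the young and the old library and held it in the adult. Without Flt1 among the markers the expected level was 103, 115 and 134 CPM. In pericytes without a UMI of the endothelial markers Klf2 stood at 148, 85.8 and 169 CPM. The 7.05, 9.22 and 12.1 CPM of Nos3 had intervals that held the expected 9.53, 9.65 and 11.9 CPM.

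Thbd in pericytes stood well above that expected level. It was measured at 46.5 CPM (32.0 to 65.3), 49.8 CPM (32.8 to 72.5) and 64.8 CPM (44.3 to 91.4), with 11.2, 12.3 and 12.9 CPM expected from carried-over RNA. The 33, 27 and 32 Thbd UMIs came from 27, 20 and 23 pericytes, with no more than 2 in any cell. In pericytes without a single UMI of the endothelial markers the level was 63.1, 59.0 and 73.7 CPM, no lower than in all pericytes. Thbd therefore reached 0.217, 0.225 and 0.321 of the endothelial level, with an old to young ratio of 1.39 (0.829 to 2.34).

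Klf4 in pericytes stood above its expected level, at 98.7, 114 and 146 CPM against 51.5, 62.0 and 62.9 CPM. A few cells held much of it, since the 3 highest cells had 38.6%, 29.0% and 54.2% of its UMIs. Its old to young ratio of 1.48 (1.05 to 2.08) was 0.869 when pericytes with 3 or more endothelial marker genes were left out. The pericyte ratio of Klf2, 1.49 (1.13 to 1.95), was 1.13 (0.793 to 1.60) in the same cells, at 149, 77.0 and 168 CPM, and there the adult library was the low one (adult to young 0.516, 0.327 to 0.794). Neither old to young ratio was beyond 1.5-fold in all pericytes, where 11.5% of genes were.

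Klf2 in smooth muscle had the largest old to young ratio of any member in the endothelial and mural classes where at least 50 UMIs were counted. It was measured at 280 CPM (224 to 345) for young, 535 CPM (459 to 620) for adult and 691 CPM (607 to 782) for old mice, on 86, 176 and 248 UMIs. The young interval lay below those of the adult and the old library, which overlapped. The adult to young ratio was 1.91 (1.47 to 2.51), the old to young ratio 2.47 (1.93 to 3.19) and the old to adult ratio 1.29 (1.06 to 1.57). In this class 9.06% of 1975 measured genes were higher beyond 1.5-fold in the old than in the young library and 7.77% in the adult. The number of cells was 38, 38 and 37, from 2 mice each, so that the values compare these 3 libraries. The makeup of the class differed between them too, since the 9 smooth muscle markers summed to 28498, 33249 and 35152 CPM in it and the 10 pericyte markers to 10085, 9505 and 5280 CPM, beside 36923, 35784 and 36226 CPM in pericytes. The part of this difference in the Klf2 values was not tested.

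The share of cells with the transcript followed the same order as the level. A Klf2 UMI was found in 23 of 38 young, 26 of 38 adult and 27 of 37 old smooth muscle cells, with a median of 1, 1 and 4 UMIs per cell. At 2000 UMIs per cell the share was 31.6%, 44.7% and 62.2% (60.5%, 68.4% and 73.0% without thinning), beside 4.76%, 1.39% and 3.52% of rods, with median depths of 8082.5, 8209 and 8490 UMIs in smooth muscle. The highest cell held 11.6%, 17.6% and 12.1% of the Klf2 UMIs of its library. In smooth muscle the level was thus 0.119, 0.217 and 0.265 of that in the endothelium.

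The endothelial markers in smooth muscle summed to 35.8, 374 and 145 CPM, at which carried-over RNA would give 6.28, 68.2 and 28.8 CPM of Klf2, far below the measured levels. In the 29, 26 and 17 smooth muscle cells without an endothelial marker UMI, Klf2 stood at 296, 644 and 635 CPM, for an old to young ratio of 2.14 (1.55 to 2.97) and an adult to young ratio of 2.17 (1.61 to 2.96). Over the 10 alternatives computed, the old to young ratio of Klf2 in smooth muscle ran from 1.99 to 2.69. Some of these could move it little or not at all. Those that left out endothelial cells alone kept the smooth muscle class as it was, and the finer clustering and the run with no doublet call again held 113 smooth muscle cells.

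Klf4 in smooth muscle was also higher in the adult library, at 169, 289 and 237 CPM, with an adult to young ratio of 1.71 (1.21 to 2.44) and an old to young ratio of 1.40 (0.980 to 2.02). Carried-over RNA would give 2.64, 30.9 and 10.9 CPM. In cells without an endothelial marker UMI the levels were 181, 236 and 159 CPM, so the adult difference was smaller there and the old level was no longer the higher. Thbd in smooth muscle rested on 12, 13 and 8 UMIs, above the 0.574, 6.14 and 2.22 CPM expected from carry-over and too few to compare between ages. All 5 genes were lower beyond 1.5-fold in smooth muscle than in the endothelium in each library, as were 21.1% of genes, and Nos3 alone of them was at or below 10% in all 3, as were 5.85%.

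**Figure D4:**
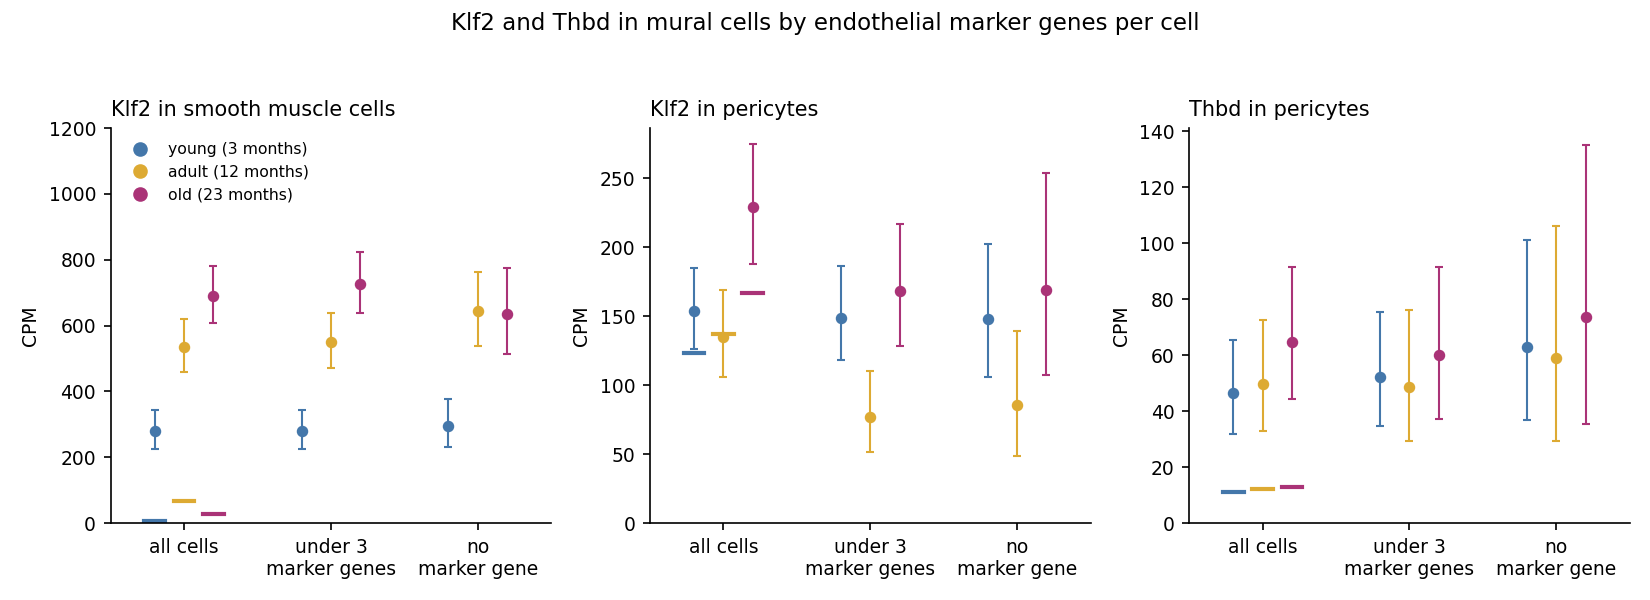
Level (CPM) of Klf2 in smooth muscle, Klf2 in pericytes and Thbd in pericytes of the young, adult and old library in all cells, in cells with under 3 endothelial marker genes and in cells with none, with exact 95% Poisson intervals and horizontal bars for the level expected from carried-over endothelial RNA. In all cells, smooth muscle Klf2 and pericyte Thbd lay above the expected level in each library, and pericyte Klf2 lay above it in the young and the old library.

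Some stress genes were also higher in the old smooth muscle cells. The 16 immediate early genes of a dissociation list, which are switched on within minutes by tissue digestion, summed to 16206, 17979 and 18683 CPM in smooth muscle, an old to young ratio of 1.15 (1.11 to 1.20). Of 15 with at least 50 UMIs, 5 were higher beyond 1.5-fold in the old library and 0 lower, where 9.06% of all measured genes were higher and 4.91% lower. These were Nfkbia (2.57, 1.63 to 4.17), Atf3 (2.39, 1.80 to 3.21), Socs3 (2.13, 1.58 to 2.89), Zfp36 (1.69, 1.39 to 2.07) and Nr4a1 (1.51, 1.10 to 2.07). Fos and Junb stood at 1.25 and 1.22 and Jun, Egr1 and Fosb at 0.911, 0.930 and 0.806, while Klf6, kept off the list as a KLF, was at 1.71 (1.12 to 2.67). In the 57 of 113 smooth muscle cells at or below the class's own median share of UMIs on the whole dissociation list, 2.02%, Klf2 had an old to young ratio of 1.99 (1.28 to 3.15) and an adult to young ratio of 2.20. The part of the dissociation response in the smooth muscle difference was not tested.

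Because the cells were digested before capture, endothelial cells were also divided by the share of their UMIs that fell on the 24 measured dissociation genes (Klf2, Klf4 and Klf6 left out), at the endothelial median of 1.41%. The low part held 210, 227 and 206 cells and the high part 235, 207 and 201. Klf2 stood at 1815, 1755 and 1976 CPM in cells with a low share and 2764, 3049 and 3274 CPM in cells with a high share, for ratios of 1.52, 1.74 and 1.66. Klf4 was at 734, 763 and 765 CPM in low and 1185, 1409 and 1217 CPM in high cells, for ratios of 1.61, 1.85 and 1.59. Both factors were beyond 1.5-fold in all 3 libraries, where 0.389% of 9781 measured genes outside the dissociation list were.

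The targets and the channel depended less on that share. Thbd was 1.35, 1.17 and 1.26-fold in high cells, at 242, 237 and 225 CPM against 179, 203 and 179 CPM. Nos3 was 1.17, 1.22 and 1.01-fold, at 195, 189 and 187 CPM against 167, 155 and 186 CPM, and Piezo1 was 0.808, 0.949 and 1.07-fold. All members but Piezo1 were thus above 1 in all 3 libraries, as were 18.9% of all genes. The interval of Nos3 included 1 in the young (0.991 to 1.39) and the old library (0.863 to 1.17).

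Age ratios of Klf2 remained within 1.5-fold in both parts. The old to young ratio was 1.09 (1.04 to 1.15) in low and 1.18 (1.14 to 1.23) in high cells, while the adult to young ratio of the low part turned to 0.967. The adult excess of Klf4 stood at 1.04 in low and 1.19 in high cells. In the endothelium as a whole the immediate early genes summed to 12397, 12670 and 12462 CPM, level between ages (old to young 1.01), with 11810, 11840 and 12907 CPM in arterial cells (1.09). The heat shock genes of the list summed to 2799, 2711 and 2444 CPM in the endothelium (old to young 0.873, 0.848 to 0.899). In pericytes the immediate early genes were lower in the older libraries, at 10891, 8913 and 8939 CPM, and the heat shock genes were at 1939, 1907 and 2133 CPM.

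Single stress genes of the endothelium differed more than their sum. Of the 24 list genes, 1 was higher beyond 1.5-fold in the old than in the young library and 3 were lower, where 4.90% of all measured genes were higher and 3.03% lower. The higher gene was Socs3, an inhibitor of cytokine signalling (95.4, 127 and 148 CPM, 1.55). The lower genes were Hspa1b (303, 275 and 89.3 CPM, 0.295) and Hspa1a (470, 445 and 276 CPM, 0.587), which encode inducible heat shock proteins, and Fosb (893, 652 and 454 CPM, 0.509). Ier3 (1.39), Dusp1 (1.35) and Atf3 (1.34) were the next highest and Fosl2 (0.767) the next lowest, and the median log2 ratio of the list was 0.08. Across endothelial cells thinned to 2000 UMIs, Klf2 had a Spearman correlation with the summed immediate early genes of 0.34, 0.48 and 0.46, and Klf4 of 0.30, 0.34 and 0.28. The correlation of Klf2 with Klf4 was 0.20, 0.28 and 0.28, and that of Klf2 with its target Nos3 was 0.07, -0.02 and 0.03. These correlations describe cells that share a library, and Nos3 was sparse in single cells. What part digestion had in the Klf2 and Klf4 levels was not tested.

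**Figure D5:**
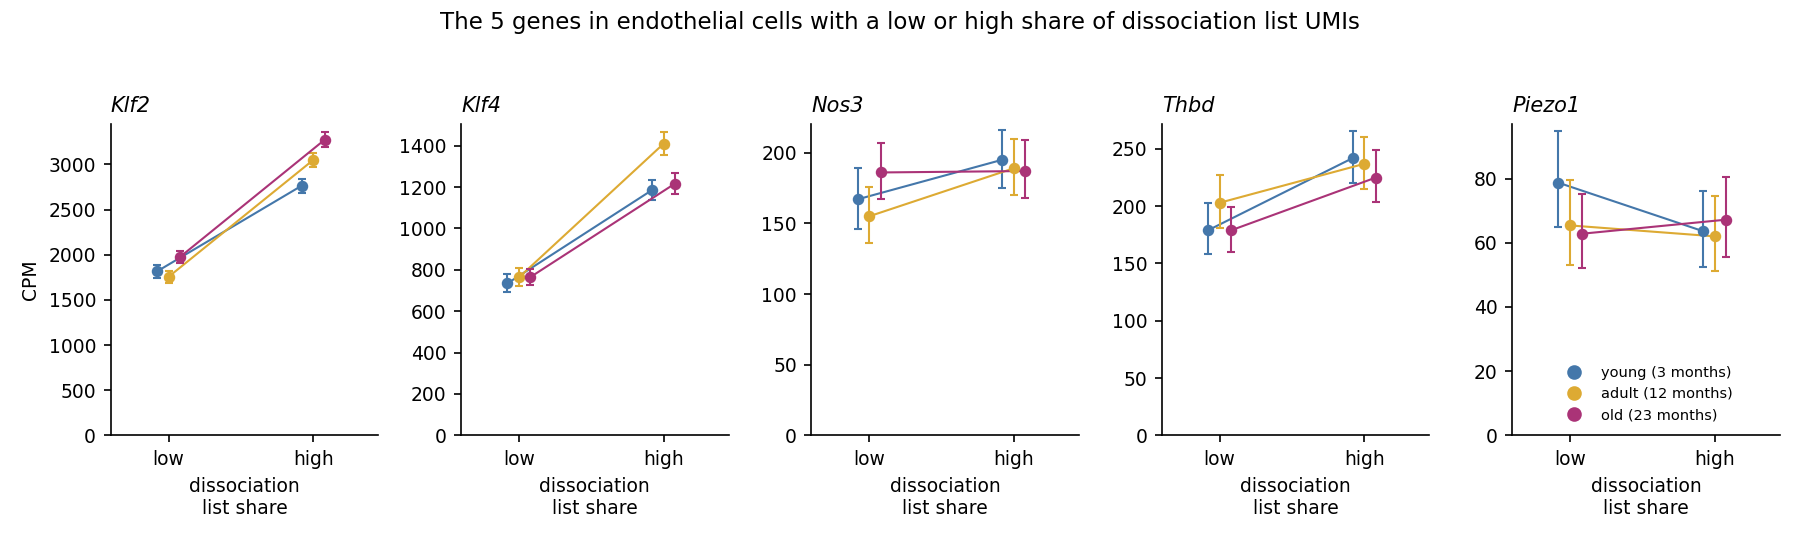
Level of each gene (CPM) in endothelial cells with a low and a high share of UMIs on dissociation genes (divided at 1.41%) in the young, adult and old library, with exact 95% Poisson intervals as bars. Klf2 and Klf4 were 1.52 to 1.85 times higher in the high part, and the ratios of Nos3 and Piezo1 ran from 0.808 to 1.22.

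Outside the vessel wall, Klf4 and Piezo1 in Müller glia and Nos3 in bipolar cells stood above the level of carried-over endothelial RNA, in Müller glia at a rate that left out 1 marker. Because Flt1, one of the endothelial markers, was itself at 659, 625 and 663 CPM in Müller glia, it was left out of the rate there, a choice made after its level was seen. With Flt1 kept, the expected Klf4 was 50.3, 53.4 and 52.4 CPM and the expected Piezo1 3.57, 3.04 and 3.46 CPM, which is within the interval of Klf4 in the young library and above Klf4 in the adult and old and Piezo1 in the old library. Klf2 in Müller glia was also above the rate without Flt1 in the young and adult library, with 24, 24 and 19 UMIs counted and 8.84, 10.7 and 15.1 expected. Klf4 in Müller glia stood at 54.1 CPM (43.5 to 66.5) for young, 14.4 CPM (9.55 to 20.8) for adult and 35.6 CPM (26.9 to 46.3) for old mice, with 2.23, 2.49 and 3.63 CPM expected from carry-over without Flt1. The adult to young ratio was 0.266 (0.167 to 0.410), beyond 1.5-fold lower as were 3.33% of genes, and the old to young ratio 0.659 (0.463 to 0.930), beyond it as were 3.54%. The old library thus lay between the young and the adult, and the summed immediate early genes were level at 14502, 14197 and 14467 CPM. Rod markers in the Müller glia class, at 360, 1117 and 859 CPM, followed the inverse order of Klf4, and their part in the Klf4 values was not tested.

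Piezo1 in Müller glia was low, on 22, 15 and 5 UMIs. At 13.2, 7.70 and 3.18 CPM it stood above the 0.159, 0.142 and 0.239 CPM expected from carry-over without Flt1, and its old to young ratio was 0.241 (0.0712 to 0.651). Its overlapping gene Ctu2 was at 4.81, 15.4 and 7.64 CPM in the same cells, in another order of the libraries, and at 10.2, 10.6 and 10.7 CPM in the endothelium. Whether the counting used the strand is not given in the sources used here, so reads shared with Ctu2 cannot be set aside.

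Nos3 in bipolar cells came mostly from the cluster led by Pcp2 and Prkca, genes known from the bipolar cells that serve rods. There, in 87, 81 and 72 cells, it stood at 27.8, 39.0 and 45.4 CPM on 19, 27 and 27 UMIs, with 0.340, 0.445 and 1.25 CPM expected from carry-over. This was 0.152, 0.225 and 0.243 of the endothelial level. Gm15587, annotated as an antisense transcript within Nos3, was in the same cells at 19.0, 31.8 and 16.8 CPM, above the endothelium, where it ran from 4.66 to 9.24 CPM, and it had no UMI in pericytes, smooth muscle or Müller glia. Reads of the 2 genes could not be told apart without knowledge of the strand setting, and the Nos3 level of this cluster is therefore uncertain. No Piezo1 UMI and 2, 1 and 1 Thbd UMIs were found there.

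The genes most like each member were sought among 11216 genes over 27 points, the 9 classes in 3 libraries, by Pearson's r of log2(CPM + 10). The points share libraries, and most of the spread lies between endothelial and other classes. Klf2 was nearest to Fxyd5 (0.987), Anxa3, Cd93 (both 0.986), Trim47 (0.984) and Foxp1 (0.979), and Klf4 to Arpc1b (0.990), Clec2d (0.986), Ppfibp1, Tsc22d1 (both 0.982) and Tgm2 (0.979). Nos3 was nearest to Jag2 and Shroom4 (both 0.984), Afap1l1 (0.981), Degs2 (0.977) and Ceacam1 (0.976). Thbd was nearest to Rasgrp3 (0.989), Slfn5 (0.988), Fxyd5 (0.987), Eng (0.986) and Foxp1 (0.982). Piezo1 was nearest to Prkch and Cmtm8 (both 0.979), Lsr (0.978), Ppp1r16b (0.977) and St6galnac3 (0.974). Fxyd5 and Foxp1 stood near both Klf2 and Thbd. Among the members themselves, r ran from 0.792 between Klf4 and Nos3 to 0.973 between Klf2 and Klf4, with 0.970 between Klf2 and Thbd and 0.906 between Nos3 and Piezo1.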

How the data were processed

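The authors deposited whole-number UMI counts per gene and droplet for 3 libraries, made with Cell Ranger 6.1.2 on mm10 per the labels; whether counting used strand is not given in the sources used here. Of 2491 young, 3243 adult and 2751 old barcodes, with 16577026, 19977238 and 17021820 UMIs, those with 500 to 6000 genes and 1 to 20% mitochondrial UMIs were kept as in the study's methods, and 8, 17 and 12 doublets were removed with Scrublet (scanpy 1.11.5) in place of the study's caller. Scrublet marked 0.467%, 0.861% and 0.701% of cells, so that doublets may remain, and the number of cells kept was a little above that of the study.

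Cells were integrated with Seurat 5.3.0 (R 4.3.3; canonical correlation, 2000 features, 30 components, resolution 0.5). The 5 genes and all listed flow, KLF and dissociation genes were left out of the features. A cluster was named when at least 3 of a class's markers were detected in 20% of its cells at 25% or more of the highest cluster's level; clusters with 50% or more of the markers of several broad classes were called mixed.

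UMIs were summed per class and library, with exact 95% intervals from scipy 1.17.1. Ratios over all genes used those with at least 50 UMIs in the groups compared together. Shares of cells were compared after thinning each cell to 2000 UMIs. The interval routine was tested on simulated data. Genes named from the lists were the 4 with the highest and the 4 with the lowest old to young ratio in the endothelium, and the 5 most like each member by Pearson's r. Klf6 and the immediate early genes named in smooth muscle, and the overlapping genes Ctu2 and Gm15587, were chosen after their values were seen, as was the rate without Flt1. The members and lists were chosen with earlier results of these data known. Alternatives covered the filters, doublet call, resolution, normalization, thinning, cells at or below their class's median stress share, cells with markers of other classes, the Kcnj8-led cluster and subtraction of carried-over RNA. Some were added after seeing the data, among them those that left out mural cells with endothelial markers, the Kcnj8-led cluster or Flt1.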

Additional observations from a re-analysis of the deposited data

Results flagged for a closer look

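Differences of direction between classes were found for Klf4, and none of them was tested, because each age had 1 library. The old to young ratio was 0.869 in arterial and 1.48 in pericyte cells (quotient 0.588), and the pericyte ratio stood against 0.659 in Müller glia (quotient 2.24). The adult to young ratio was 0.831 in arterial against 1.20 in other endothelial cells (quotient 0.693) and 1.71 in smooth muscle (quotient 0.486). Müller glia, at 0.266, stood apart from other endothelial cells (quotient 4.52) and from smooth muscle (quotient 6.44). The arterial and pericyte directions did not hold under all alternatives, as given with the processing.

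Immune cells lay outside the comparisons and held both factors above the level of rods. Klf2, known as a factor of resting lymphocytes, stood at 2700, 1485 and 2339 CPM in the young, adult and old library in a B cell-like cluster of 11, 77 and 57 cells. In a microglia-like cluster of 9, 29 and 14 cells Klf2 was at 1846, 1535 and 1002 CPM. Klf4 was at 356, 91.8 and 77.2 CPM in the B cell-like and 128, 416 and 170 CPM in the microglia-like cluster. Rods held 18.8, 7.05 and 19.8 CPM of Klf2 and 2.08, 1.01 and 4.94 CPM of Klf4. With 1 library an age, samples could not be searched for outliers.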

How the results depend on the processing

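No paired analysis was possible because each age had 1 library. Of 108 results with alternatives, 7 values crossed 1 where the reported interval left out 1, and 20 more moved beyond their counting interval to the other side of 1 where it did not; the cause of these and the other shifts was not tested. In cells at or below the median stress share of their class the adult to young ratio of endothelial Klf2 was 0.967, the old to young ratio of arterial Klf4 1.03, and the arterial to other endothelial ratio 0.849 for adult Klf2, 1.85 for adult Nos3 and 0.515 for young Thbd, and the smooth muscle to endothelial ratio of old Klf2 was 0.191. Leaving out endothelial cells with 3 or more marker genes of another class kept 749 of 1286 endothelial cells. The old to young ratio of arterial Klf2 was then 0.878 and of endothelial Klf4 1.08, and the arterial to other ratio 0.832 for old Nos3 and 1.14 and 0.888 for young and old Klf2. At resolution 0.8 the adult to young ratio of arterial Klf4 was 1.05, and the arterial to other ratio 1.21 and 1.09 for young and adult Thbd, 0.949 for old Klf2, 1.26 and 1.13 for young and adult Klf4 and 1.13 (0.953 to 1.34) for young Nos3. With no doublet call the latter ratio was 0.962 and 0.928 for young and old Klf2. Thinned cells gave old to young endothelial ratios of 1.10 (Klf4), 1.18 (Nos3), 1.07 (Thbd) and 1.23 (Piezo1), and arterial to other ratios of 1.07 for adult Klf4, 1.61 for old Nos3 and 0.547 for old Thbd. Mixed droplets counted as endothelial gave 1.16 for Klf2 and 1.05 for Klf4. Pericytes with few endothelial markers gave an old to young Klf4 ratio of 0.869, and subtraction of carried-over RNA without Flt1 an adult smooth muscle to endothelial Klf2 ratio of 0.184. At 2-fold, 1 gene of the flow list (2 at 1.5-fold) and 1 of the dissociation list (4 at 1.5-fold) were beyond the mark. Of all alternative values, 856 differed from the reported value by less than counting error (list counts by less than 1.5 times) and 120 by more, the 20 above among them. The 856 include values that an alternative could not change, such as mural age ratios where endothelial cells alone were left out. Depth limited Piezo1 and Nos3 in mural cells, where counts were at or under 6 UMIs.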

Other observations

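A cluster with endothelial markers and few UMIs per cell was left unnamed (62 young, 71 adult and 86 old cells, led by Neat1, Gm26917, Apold1 and Plk2). Klf4 stood there at 1481, 1214 and 1474 CPM, above the endothelial class at 987, 1116 and 984 CPM, whereas Klf2 was at 1416, 1519 and 1329 CPM, below the endothelial 2348, 2461 and 2606 CPM. The immediate early genes summed to 11986, 9787 and 10912 CPM in it. Thbd was at 240, 285 and 229 CPM and Nos3 at 146, 92.9 and 141 CPM. In the mixed endothelial and mural droplets Klf2 stood at 1688, 1728 and 1937 CPM and Klf4 at 688, 788 and 718 CPM, between the endothelial and the pericyte level.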
